A study of Mus musculus with 6 samples.

Results

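The genes described here are 37 interferon response genes, read in stromal cells of injured mouse quadriceps that had been sorted on a fluorescent p16 reporter. The p16 protein is a product of Cdkn2a that halts the cell cycle, and it is a common mark of senescence. The 37 genes were taken by name from a list of genes that interferons are known to induce, and all 37 were found among the 55536 genes counted in each library. Of the 37, 25 are classed here as type I members and 12 as gamma-type members, by the interferon that each is best known to answer, although most of them can respond to both. There were 3 libraries of reporter-positive cells (p16+) and 3 of reporter-negative cells (p16-). All were sorted as CD45-CD31-CD29+ cells, which leaves out leukocytes and endothelium, from mice that carry a tdTomato reporter of p16 on the C57Bl/6 background. Per the labels' protocols, muscle was resected from both quadriceps at 10 weeks of age, the defects received decellularized matrix, 50 uL of saline or 30 mg of polycaprolactone particles, and muscle was harvested 1 or 6 weeks later. The sources used here do not give the filler or the harvest time of these libraries, nor whether p16+ and p16- libraries had them in common. All animals were given carprofen, an anti-inflammatory drug, per the same protocols. The labels do not say that the 3 libraries of a group came from separate animals, and p-values measure the spread between these libraries, which may be technical.

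Interferons are secreted proteins that make a cell hostile to viruses and visible to lymphocytes. Type I interferons bind the receptor made of Ifnar1 and Ifnar2 and act mainly through a complex with Stat2 and Irf9, which binds the interferon-stimulated response element (ISRE). Interferon gamma, made by T and natural killer cells, binds Ifngr1 and Ifngr2 and acts mainly through the gamma-activated site (GAS), with Irf1 in a later wave. Many of the induced genes are also expressed at a low level without infection, and interferon response genes are often discussed as a late part of the secretory programme of senescent cells.

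Total counts were 35253406 to 37861713 fragments in p16+ libraries and 36507067 to 39103909 in p16- libraries, and a floor of 3 counts amounted to 0.0767 to 0.0851 CPM. CPM are counts relative to the normalized library total. Cdkn2a, the gene that the reporter follows, had 6.91, 8.82 and 7.74 CPM in p16+ libraries, against 2.41, 1.77 and 2.20 CPM in p16- libraries. The first principal component (41.2% of the variance) separated the groups. All 8 listed stromal markers were present at 394 CPM or more in every library: Pdgfrb, Col1a1, Col3a1, Lum and Thy1 were higher in p16+, and Pdgfra, Dcn and the gate gene Itgb1 (CD29) did not pass, with log2 fold changes of -0.23, -0.15 and 0.23. Without p16- replicate 1, 4 of the 8 were higher and 1 lower. In bulk libraries such as these, fewer cells of a type and less RNA per cell cannot be told apart. The library that stood apart for the interferon response genes was p16- replicate 1, which was the highest of the 6 for 28 of the 37, against 21.6% of all 15903 genes tested. The main counts are therefore also given without it.

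Many of the interferon response genes were lower in p16+ than in p16- cells, among them both chemokines, all 3 IFIT genes, 4 of 6 GTPases and the factors Irf1, Irf7 and Irf9. Of the 37, all of which passed the filter on low counts, 18 were lower in p16+ at an adjusted p under 0.05 (edgeR), where 8.04% of all genes tested were lower. 0 of the 37 were higher in p16+, where 8.69% of all genes tested were higher. That count was also 0 at an unadjusted p under 0.05 and in DESeq2, which called 18 members lower. The median log2 fold change, p16+ over p16-, was -0.33 over the 37 and -0.01 over all genes tested. At least 2-fold lower were 6 members: the chemokines Cxcl10 and Cxcl9, the GTPase Irgm1, the GTPase family gene Mx2, the antiviral RNA-binding protein Ifit1, and Ifi27l2a, an interferon-induced membrane protein. Across all genes tested, 2.31% were lower in p16+ by that margin. Without p16- replicate 1, 3 members were: Ifi27l2a, Cxcl10 and Irgm1. For 23 members every p16+ library lay below every p16- library, against 16.5% of all genes tested, and for 0 members did every p16+ library lie above, against 16.6%. Without p16- replicate 1, 16 of the 18 calls remained and the median was -0.23. The 2 calls that ended were those of Ifit3 and Igtp.

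**Figure D1:**
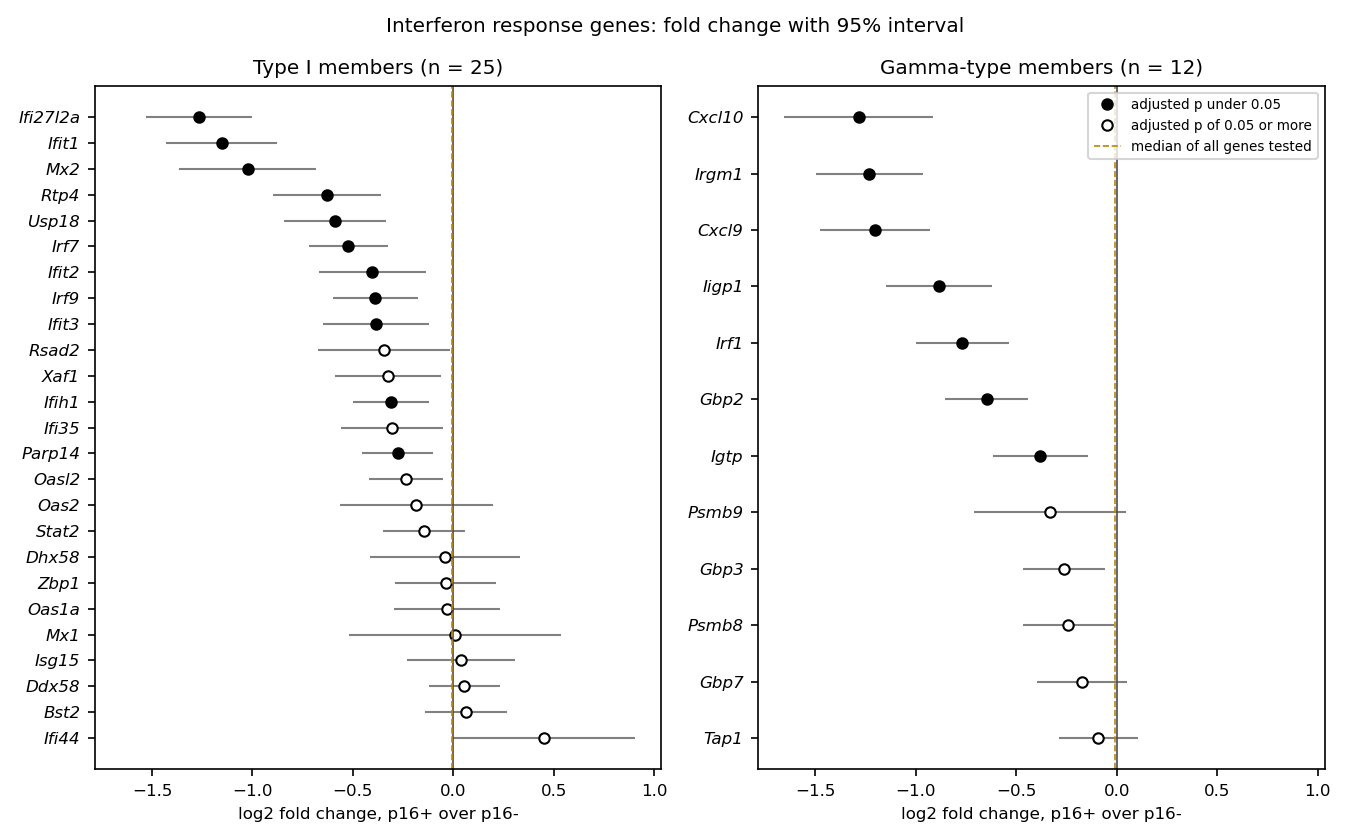
Log2 fold change, p16+ over p16-, of the 25 type I members (left) and the 12 gamma-type members (right), with 95% intervals; filled points passed an adjusted p of 0.05 and the dashed line is the median of all genes tested. The 18 filled points all lie left of 0, and the gamma-type members run from -1.28 (Cxcl10) to -0.09 (Tap1).

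Both classes held genes that were much lower in p16+ and genes that were not. Of the 25 type I members 11 were lower, with a median log2 fold change of -0.30 and a range of -1.27 (Ifi27l2a) to 0.45 (Ifi44). Of the 12 gamma-type members 7 were lower, with a median of -0.51, and all 12 had a negative fold change. Summed over the class, type I members held 809 to 875 CPM in p16+ libraries, against 943 to 1195 CPM in p16- libraries. Gamma-type members held 880 to 982 CPM in p16+ libraries, against 1363 to 1901 CPM in p16- libraries. Neither sum overlapped between the groups. Without p16- replicate 1 the medians were -0.21 for type I and -0.40 for gamma-type members, with 10 and 6 called lower. Leaving out either replicate 1 or replicate 3 of p16+ brought the type I count to 7. Whether the classes differ was not tested.

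The start regions of 27 of the 37 genes (GRCm38.p6, 250 bases before to 50 after each RefSeq start) were searched for the letters of the elements through which interferons are known to act. The other 10 had no entry in the RefSeq table used here or lie on a chromosome that was left out. The ISRE was searched as GAAANNGAAA and the GAS as TTCNNNGAA, on both strands, where the ISRE reads TTTCNNTTTC on the other strand. A match to the ISRE letters stood in 15 of the 27 genes, against 3.44% of all 32851 promoters. A match to the GAS letters stood in 8 of the 27, against 8.30% of all promoters, and 4 genes had both. The members were counted per gene, a match in any of its promoters sufficing (31 promoters for the 27), and the background per promoter. The sequences shown are the 200 bases before the RefSeq start, 5′ to 3′ on the strand of the gene, with matches in capitals. That start can differ from the start of the GENCODE gene model that was counted. Ifit1, Irgm1, Gbp2 and Irf1 were lower in p16+ and are shown because their matches differ. Isg15 and Bst2, abundant members that did not pass the test, are shown beside them.
Ifit1: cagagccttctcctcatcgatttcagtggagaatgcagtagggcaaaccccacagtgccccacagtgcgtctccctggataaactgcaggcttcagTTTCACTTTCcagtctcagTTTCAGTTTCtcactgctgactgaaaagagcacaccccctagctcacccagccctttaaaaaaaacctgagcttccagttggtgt
Irgm1: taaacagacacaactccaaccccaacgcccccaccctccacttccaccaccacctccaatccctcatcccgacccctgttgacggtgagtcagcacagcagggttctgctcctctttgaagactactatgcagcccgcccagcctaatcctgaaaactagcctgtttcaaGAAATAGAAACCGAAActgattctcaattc
Gbp2: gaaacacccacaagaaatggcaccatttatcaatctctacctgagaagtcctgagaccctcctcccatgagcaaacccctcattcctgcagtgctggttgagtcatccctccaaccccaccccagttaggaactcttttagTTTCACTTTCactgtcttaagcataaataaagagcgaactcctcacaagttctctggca
Irf1: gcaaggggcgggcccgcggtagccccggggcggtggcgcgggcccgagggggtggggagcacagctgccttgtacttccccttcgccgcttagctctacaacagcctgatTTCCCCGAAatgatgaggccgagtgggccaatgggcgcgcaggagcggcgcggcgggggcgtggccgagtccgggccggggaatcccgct
Isg15: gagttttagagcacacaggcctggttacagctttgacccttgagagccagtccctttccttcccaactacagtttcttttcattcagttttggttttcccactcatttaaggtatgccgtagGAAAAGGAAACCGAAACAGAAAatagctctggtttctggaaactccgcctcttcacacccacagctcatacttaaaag
Bst2: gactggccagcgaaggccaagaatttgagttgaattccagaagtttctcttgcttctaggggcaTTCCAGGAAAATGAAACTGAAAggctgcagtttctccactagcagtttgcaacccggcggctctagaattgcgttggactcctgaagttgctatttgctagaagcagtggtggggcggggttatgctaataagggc
Ifit1 (chr19:34640689-34640888, plus strand) has a pair of separate ISRE matches that begin 104 and 85 bases before the start. Irgm1 (chr11:48871421-48871620, minus strand) has a pair that overlap, at 30 and 24 bases. The whole Irgm1 stretch lies inside the counted gene model (chr11:48861968-48871683). The stretches of Ifit1 and Gbp2 also run into their counted models, which begin at 34640871 and 142620602. Gbp2 (chr3:142620463-142620662, plus strand) has a single ISRE match at 59 bases, and Irf1 (chr11:53769814-53770013, plus strand) a single GAS match at 90 bases and no ISRE match. Isg15 (chr4:156200819-156201018, minus strand) has 3 overlapping ISRE matches at 78, 72 and 66 bases. Bst2 (chr8:71537473-71537672, minus strand) has a pair of overlapping ISRE matches at 130 and 124 bases and a GAS match at 136 bases that overlaps the first of them. Of the 12 searched genes that were lower in p16+, 7 had an ISRE match, 3 a GAS match and 3 neither. Of the 15 that did not pass the test, 8 had an ISRE match, 5 a GAS match and 5 neither. By class, an ISRE match stood in 9 of 16 type I and 6 of 11 gamma-type members, and a GAS match in 4 of each. A match is a description of the letters and not a bound site.

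Among the signalling proteins and transcription factors of the response, 4 of 5 were lower in p16+: Irf1, Usp18, Irf7 and Irf9. Irf1 (ENSMUSG00000018899.16, chr11:53770014-53778374), the transcription factor of that later wave, had the highest level per length of the gamma-type members. Irf1 had 329, 314 and 364 CPM in p16+ libraries, against 670.5, 473 and 571 CPM in p16- libraries. The groups did not overlap, and the lowest p16- library was well above the highest p16+ library. Its log2 fold change was -0.77 (SE 0.11, adjusted p = 0.000108). Per kilobase of exons, Irf1 stood at 84.4 CPM per kb in p16+ and 144 in p16-. Irf7, the factor that amplifies type I interferon production, had 51.1, 48.8 and 46.6 CPM in p16+ libraries, against 79.7, 68.5 and 62.3 CPM in p16- libraries (log2 fold change -0.52, SE 0.09, adjusted p = 0.000847). All 3 p16+ libraries lay below all 3 p16- libraries.

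Usp18 removes Isg15 from its target proteins and restrains signalling from the type I receptor. It had 21.3, 17.7 and 18.8 CPM in p16+ libraries, against 33.1, 27.7 and 26.1 CPM in p16- libraries (log2 fold change -0.59, SE 0.12, adjusted p = 0.00245). Its groups did not overlap, and p16- replicate 1 was the highest. Irf9, the DNA-binding part of the type I complex, had 42.1, 44.1 and 43.3 CPM in p16+ libraries, against 66.4, 51.7 and 51.4 CPM in p16- libraries (log2 fold change -0.39, SE 0.10, adjusted p = 0.0126). The p16+ libraries lay close together and below the others, and p16- replicate 1 carried much of the distance: without it the log2 fold change was -0.25 (adjusted p = 0.0484). The call of Irf9 ended without p16+ replicate 3 (adjusted p = 0.0515). Stat2, which works together with Irf9, overlapped between the groups (log2 fold change -0.15, 95% interval -0.35 to 0.06, adjusted p = 0.359).

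The chemokines were both lower in p16+, with fold changes among the lowest of the 37. Cxcl9 and Cxcl10 attract T and natural killer cells through the receptor Cxcr3 and lie next to each other on chromosome 5. Cxcl10 (ENSMUSG00000034855.13, chr5:92346638-92348889) had 58.6, 64.8 and 79.7 CPM in p16+ libraries, against 212, 137 and 145 CPM in p16- libraries. The p16+ mean was 67.7 ± 10.9 CPM and the p16- mean 165 ± 41.3 CPM (SD, n = 3 per group). The groups did not overlap, and p16- replicate 1 was far above the other five libraries. The log2 fold change was -1.28 (SE 0.17, 95% interval -1.66 to -0.91, adjusted p = 0.000363), and -1.06 without that library. Cxcl9 (ENSMUSG00000029417.9, chr5:92321347-92328079) had 41.3, 48.1 and 50.8 CPM in p16+ libraries, against 136, 91.2 and 95.4 CPM in p16- libraries. Its groups did not overlap either, with a log2 fold change of -1.20 (SE 0.13, 95% interval -1.48 to -0.93, adjusted p = 7.92e-06), and -0.995 without p16- replicate 1.

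Interferon-induced GTPases attack the vacuoles in which bacteria and parasites hide, and 4 of the 6 listed among the 37 were lower in p16+. Others of these GTPases stand among the further gamma response genes below. Irgm1 (ENSMUSG00000046879.7, chr11:48861968-48871683), which regulates the other immunity-related GTPases, had 68.0, 62.6 and 75.6 CPM in p16+ libraries, against 197, 127 and 159 CPM in p16- libraries. The p16+ mean was 68.7 ± 6.5 CPM, against a p16- mean of 161 ± 35.2 CPM (SD, n = 3 per group). No p16+ library came near the lowest p16- library (log2 fold change -1.23, SE 0.13, 95% interval -1.50 to -0.96, adjusted p = 4.67e-06). Iigp1, an effector of the same family, had 106, 109 and 118 CPM in p16+ libraries, against 260.1, 184 and 171 CPM in p16- libraries (log2 fold change -0.89, SE 0.12, adjusted p = 9.84e-05). Gbp2, a guanylate-binding protein of the larger GTPase family, had 89.7, 99.4 and 97.2 CPM in p16+ libraries, against 175, 137 and 136 CPM in p16- libraries (log2 fold change -0.65, SE 0.10, adjusted p = 0.000179). For both genes the groups did not overlap and p16- replicate 1 was the highest library. Per kilobase, Gbp2 stood at 37.9 CPM per kb in p16+ and 59.4 in p16-, above Iigp1 at 19.1 and 35.2.

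Igtp, a further immunity-related GTPase, had 24.4, 28.6 and 26.2 CPM in p16+ libraries, against 38.7, 30.0 and 34.4 CPM in p16- libraries (log2 fold change -0.38, SE 0.11, adjusted p = 0.0264). The distance between the highest p16+ and the lowest p16- library was small, and without p16- replicate 1 Igtp did not pass (log2 fold change -0.28, adjusted p = 0.108). Its call also ended without replicate 1 or 3 of p16+ and without replicate 3 of p16-. Of its 50-base windows, 11.8% are shared with Irgm2, so that part of its fragments may have been left uncounted or gone to that gene. Gbp3 and Gbp7 did not pass, with log2 fold changes of -0.26 (adjusted p = 0.0779) and -0.17 (adjusted p = 0.313), and another gene model overlaps 11.3% of the exonic length of Gbp7.

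All 3 IFIT genes, which lie side by side on chromosome 19 and encode proteins that bind foreign RNA and block its translation, were lower in p16+, with log2 fold changes of -1.15 to -0.39, and for none of them did the groups overlap. Ifit1 (ENSMUSG00000034459.8, chr19:34640871-34650009) had 30.6, 34.9 and 28.7 CPM in p16+ libraries, against 87.9, 59.1 and 62.6 CPM in p16- libraries. With a p16+ mean of 31.4 ± 3.16 CPM and a p16- mean of 69.8 ± 15.7 CPM (SD, n = 3 per group), its log2 fold change was -1.15 (SE 0.13, 95% interval -1.43 to -0.88, adjusted p = 1.17e-05). Ifit2 had 19.3, 21.2 and 19.8 CPM in p16+ libraries, against 24.2, 32.0 and 23.6 CPM in p16- libraries (log2 fold change -0.40, SE 0.13, adjusted p = 0.0369). Here p16- replicate 2 and not replicate 1 was the highest. Without replicate 2 the log2 fold change of Ifit2 was -0.25 (adjusted p = 0.207). Ifit3 had 24.4, 26.8 and 27.9 CPM in p16+ libraries, against 42.1, 30.3 and 31.1 CPM in p16- libraries (log2 fold change -0.39, SE 0.12, adjusted p = 0.0425). Its highest library was p16- replicate 1, without which the log2 fold change was -0.22 (adjusted p = 0.218). Of the 50-base windows of Ifit3, 51.2% are shared with its near copy Ifit3b, so its count is uncertain. The calls of Ifit2 and Ifit3 also ended without p16+ replicate 1, 2 or 3 in turn.

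Among the other antiviral effectors, 4 of 11 were lower in p16+: Ifi27l2a, Mx2, Rtp4 and Parp14. Ifi27l2a (ENSMUSG00000079017.3, chr12:103442167-103443680) stood at 78.4 CPM per kb in p16+ and 189 in p16-; it was the highest type I member per length in p16- libraries, whereas in p16+ libraries it lay below Bst2. Ifi27l2a had 37.4, 34.1 and 37.4 CPM in p16+ libraries, against 108, 84.4 and 69.3 CPM in p16- libraries. The p16+ libraries were nearly equal and the p16- libraries spread widely above them (log2 fold change -1.27, SE 0.12, adjusted p = 3.32e-06). Mx2 belongs to a family of dynamin-like antiviral GTPases, but the annotation used here classes it as a polymorphic pseudogene. Its RNA level is therefore not a measure of a working protein. Mx2 had 10.8, 9.07 and 10.9 CPM in p16+ libraries, against 26.5, 18.3 and 17.7 CPM in p16- libraries (log2 fold change -1.02, SE 0.16, adjusted p = 0.000258). The groups of Mx2 did not overlap, and p16- replicate 1 stood above the rest. Its neighbour Mx1, the influenza resistance protein of mice, which is defective in many inbred strains, lay at 2.80 to 4.43 CPM in p16+ libraries and 3.69 to 3.98 CPM in p16- libraries. The log2 fold change of Mx1 was 0.01 with a wide 95% interval of -0.52 to 0.53 (adjusted p = 0.992).

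Rtp4, a receptor transporter that is strongly induced by type I interferon, had 22.6, 24.7 and 23.2 CPM in p16+ libraries, against 44.8, 33.1 and 31.1 CPM in p16- libraries (log2 fold change -0.63, SE 0.13, adjusted p = 0.00227). Its groups did not overlap, and 13.9% of its exonic length is overlapped by another gene model on the same strand. Parp14, a mono-ADP-ribosyltransferase, had 61.7, 66.7 and 69.7 CPM in p16+ libraries, against 78.5, 87.1 and 74.6 CPM in p16- libraries (log2 fold change -0.28, SE 0.08, adjusted p = 0.0297). The groups lay close without overlap, and the call ended without replicate 1 or 2 of p16+ and without replicate 2 of p16-.

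Several effectors that are among the best known interferon response genes did not pass. Isg15, the ubiquitin-like protein that is attached to other proteins, had 30.3, 34.0 and 39.3 CPM in p16+ libraries, against 40.2, 31.8 and 28.7 CPM in p16- libraries. Its libraries were thoroughly mixed, with a log2 fold change of 0.04 and a 95% interval that excludes the fold changes of Ifit1 and Ifi27l2a (-0.23 to 0.31, adjusted p = 0.883). Bst2, or tetherin, which holds budding viruses at the cell surface, had 102, 88.8 and 106 CPM in p16+ libraries, against 108, 91.6 and 85.4 CPM in p16- libraries (log2 fold change 0.06, 95% interval -0.14 to 0.27, adjusted p = 0.727). These are 2 of the 3 highest type I members per length: Bst2 stood at 109.9 CPM per kb in p16+ and 105 in p16-, and Isg15 at 45.7 and 44.4. The sign of both small differences turned with the scaling, to -0.01 for Bst2 and -0.04 for Isg15 when library sizes alone were used. Ifi44, which lies low, had 7.04, 10.9 and 12.5 CPM in p16+ libraries, against 6.91, 9.18 and 6.15 CPM in p16- libraries (log2 fold change 0.45, 95% interval -0.00 to 0.91, adjusted p = 0.18). The groups of Ifi44 overlapped, and it passed, as higher in p16+, only in the fit without p16+ replicate 1 (adjusted p = 0.039).

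Others of these effectors lay near the threshold. Xaf1, a promoter of apoptosis, had 19.5, 18.4 and 20.1 CPM in p16+ libraries, against 28.2, 23.8 and 20.6 CPM in p16- libraries (log2 fold change -0.33, adjusted p = 0.0888). Ifi35 had 22.3, 20.9 and 23.5 CPM in p16+ libraries, against 30.9, 28.5 and 23.0 CPM in p16- libraries (log2 fold change -0.30, adjusted p = 0.0996). For both, p16- replicate 3 was at the level of the p16+ libraries, and both passed without it; 16.8% of the exonic length of Ifi35 is overlapped by a gene on the opposite strand. Rsad2, or viperin, did not pass either (log2 fold change -0.34, adjusted p = 0.154), although its groups did not overlap.

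The OAS proteins make the second messenger that switches on RNA decay. Of the 3 OAS genes among the 37, 0 passed in edgeR or DESeq2, with 1 at an unadjusted p under 0.05. That one was Oasl2, an OAS-like protein, with 64.5, 72.3 and 72.2 CPM in p16+ libraries, against 88.5, 84.1 and 73.5 CPM in p16- libraries (log2 fold change -0.24, adjusted p = 0.0763). The highest p16+ and the lowest p16- library were almost equal, and Oasl2 passed without p16- replicate 3. Oas2 (log2 fold change -0.18, adjusted p = 0.565) and Oas1a (-0.03, 95% interval -0.29 to 0.23, adjusted p = 0.906) overlapped between the groups. Of the 50-base windows of Oas1a, 57.6% are shared with its copies Oas1g and Oas1b, so its count is uncertain. Outside the 37, Oas1b, Oas1g, Oas3 and Oasl1 had log2 fold changes of -0.58, -0.08, 0.66 and 0.21. None of these passed in edgeR (adjusted p = 0.0734, 0.911, 0.26 and 0.5785). Oas1b had an unadjusted p of 0.014, and its groups did not overlap.

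Among the nucleic acid sensors, 1 of 4 was lower in p16+. Ifih1 (MDA5), which senses long double-stranded RNA, had 33.2, 36.4 and 35.1 CPM in p16+ libraries, against 41.0, 46.6 and 42.4 CPM in p16- libraries (log2 fold change -0.31, SE 0.09, adjusted p = 0.025). Its groups did not overlap, and it did not pass without replicate 1 or 3 of p16+ or without replicate 2 or 3 of p16-. Ddx58 (RIG-I), which senses RNA with uncapped ends, overlapped between the groups with a narrow interval around no difference (log2 fold change 0.05, 95% interval -0.12 to 0.23, adjusted p = 0.728). Dhx58 (LGP2), a relative of both, and Zbp1, a sensor of left-handed nucleic acids that triggers cell death, each had a log2 fold change of -0.04, with 95% intervals of -0.42 to 0.33 and -0.29 to 0.21.

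The immunoproteasome and peptide transport genes supply peptides to MHC class I, and 0 of 3 passed in edgeR or DESeq2, with 1 at an unadjusted p under 0.05. Psmb9 and Psmb8, catalytic parts of the immunoproteasome, had log2 fold changes of -0.33 (adjusted p = 0.241) and -0.24 (adjusted p = 0.147). Tap1, a part of the transporter that carries peptides into the endoplasmic reticulum, had a log2 fold change of -0.09 (95% interval -0.29 to 0.11). The 3 genes are neighbours on chromosome 17, and 14.7% of the exonic length of Psmb8 is overlapped by another gene model. Over the 13 members given here without values per library, CPM ran from 2.80 to 71.3 in p16+ libraries and from 3.69 to 85.8 in p16- libraries. Of those 13, 10 overlapped between the groups. In the other 3, every p16+ library lay below every p16- library. Over all genes tested, 16.5% lay below in this way and 16.6% above, so most genes overlapped there too.

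**Figure D2:**
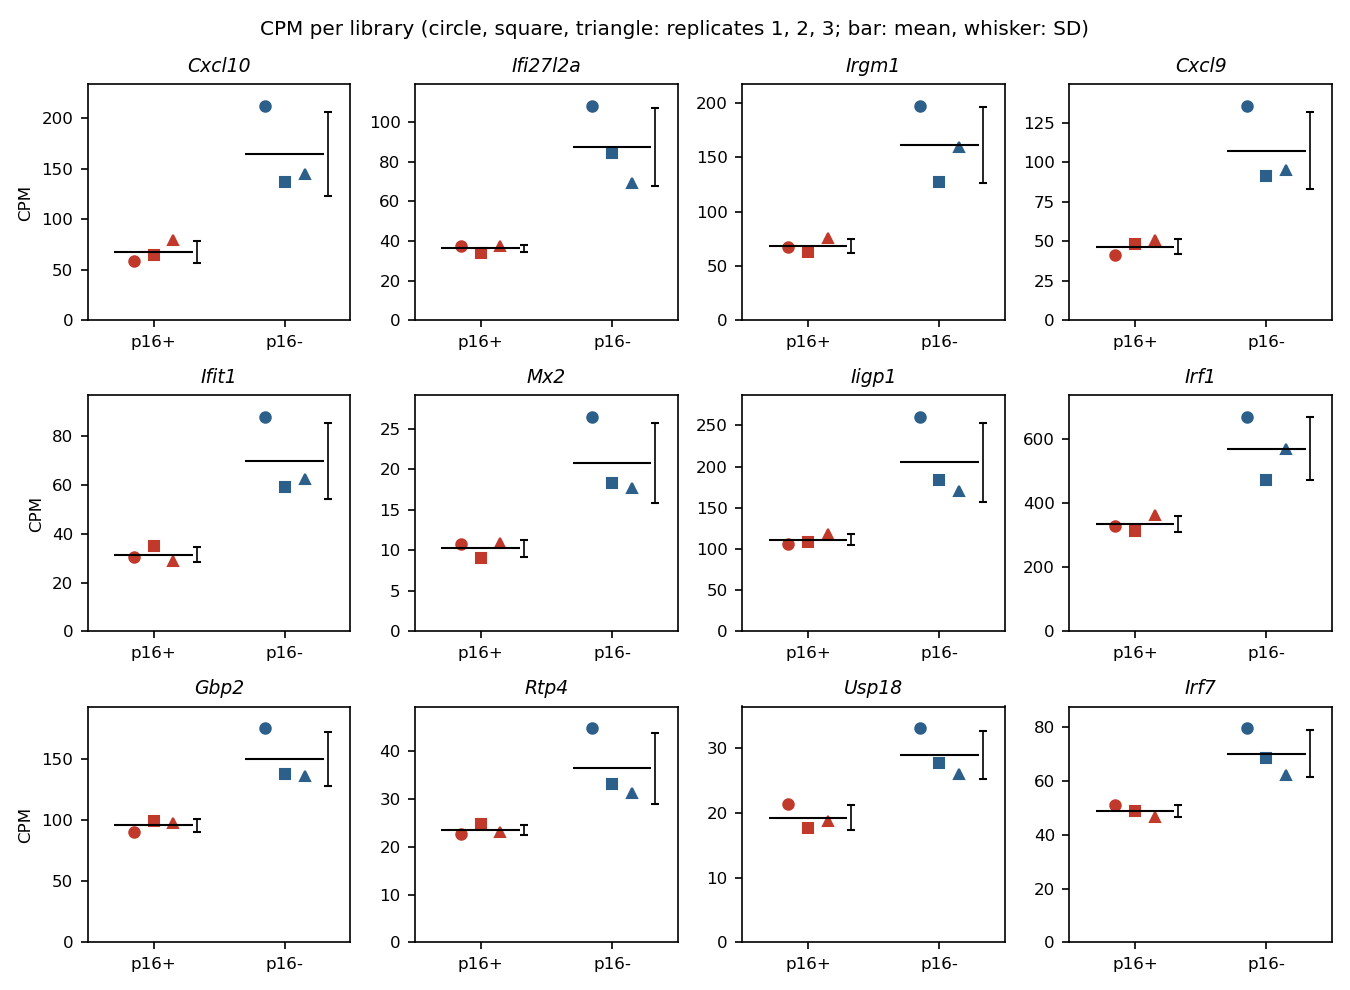
CPM in each library of the 12 members that were lower in p16+ in every fit tried; p16+ stands left and p16- right, circles, squares and triangles are replicates 1, 2 and 3, bars are means and whiskers SD (n = 3). In all 12 panels the p16+ libraries lie below the p16- libraries, and p16- replicate 1 is the highest point, as in Cxcl10 at 212 CPM.

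The 12 members that were lower in p16+ in all 13 alternative fits were Cxcl10, Ifi27l2a, Irgm1, Cxcl9, Ifit1, Mx2, Iigp1, Irf1, Gbp2, Rtp4, Usp18 and Irf7. For each of the 18 called members an exact two-sided permutation test of log2 CPM gave p = 0.1, the smallest value that 3 against 3 libraries allow.

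The members did not only differ between the groups but varied more among the p16- libraries. The SD of log2 CPM was larger in p16- than in p16+ for 30 of the 37, where 51.9% of all genes tested had the larger SD in p16-. The median SD over the members was 0.104 in p16+ and 0.211 in p16-, against 0.162 and 0.174 over all genes tested. Among p16- libraries, replicate 1 was the highest for 28 members and replicate 3 the lowest for 25. Among p16+ libraries, replicate 3 was the highest for 19 members and replicate 1 the lowest for 21. The median distance of a member from its own mean over the 6 libraries, in log2 CPM, was -0.23, -0.16 and -0.12 in p16+ replicates 1, 2 and 3, and 0.37, 0.12 and 0.06 in p16- replicates 1, 2 and 3. The same median over all genes tested lay between 0.003 and 0.015. By this measure every p16+ library was below every p16- library.

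**Figure D3:**
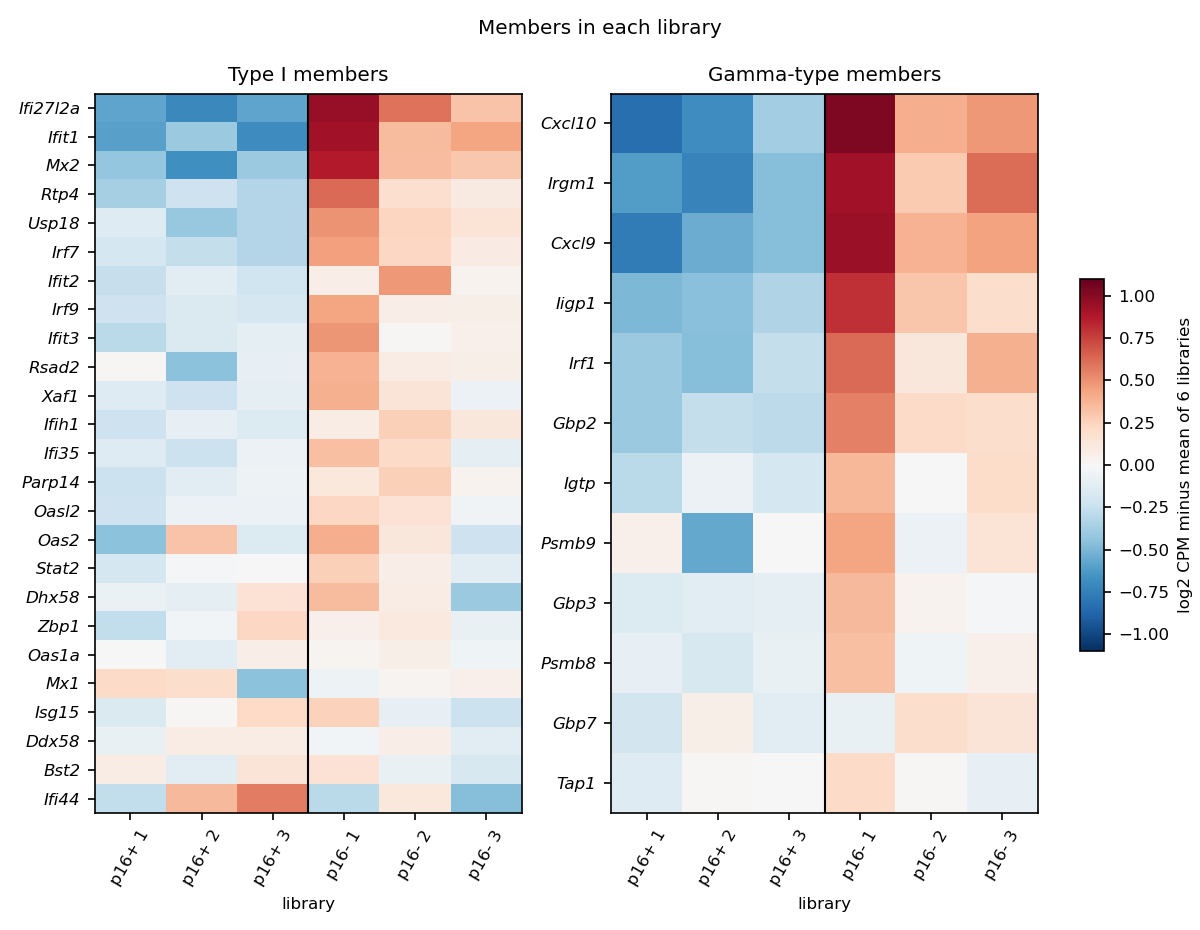
Log2 CPM of each member minus its mean over the 6 libraries, for type I (left) and gamma-type members (right), with p16+ libraries left of the black line and p16- libraries right of it; red is above and blue below the mean. The column of p16- replicate 1 is the reddest, and the rows from Dhx58 down to Bst2 show little contrast between the groups.

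The rest of the interferon pathway was read from lists of other genes of the response. Of 104 such genes, 79 were tested, and 21 were lower and 4 higher in p16+, with a median log2 fold change of -0.19. Over all genes tested, 8.04% were lower and 8.69% higher, so the 4 higher genes were fewer than that share. A single higher gene in a list below is near or under it. The ligands themselves were hardly detected: 19 of 21 interferon genes had 0 counts in every library. The exceptions were Ifna11, with 4, 0 and 0 counts in p16+ libraries and 0 in each p16- library, and interferon gamma (Ifng), with 0, 0 and 6 counts in p16+ libraries, against 0, 9 and 9 in p16- libraries. The p16- library without an Ifng count was replicate 1, and 25.9% of the exonic length of Ifng is overlapped by another gene model. At these depths a count of 0 allows up to 0.0767 to 0.0851 CPM, which covers counting error only.

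Of 9 receptor chains and kinases, 1 was higher in p16+, a share near the 8.69% of all genes tested. That was Ifngr2, a chain of the gamma receptor, with 82.6, 88.9 and 80.8 CPM in p16+ libraries, against 54.4, 67.3 and 63.6 CPM in p16- libraries (log2 fold change 0.45, SE 0.09, adjusted p = 0.00187). Its groups did not overlap. The other chains did not pass: the log2 fold changes were 0.13 for Ifnar1 (95% interval -0.03 to 0.30), -0.04 for Ifnar2 (-0.21 to 0.13) and -0.17 for Ifngr1 (-0.32 to -0.01, adjusted p = 0.139). Of the other STAT and IRF factors, Stat3, Irf2, Irf3, Irf5 and Irf8 did not pass in edgeR and went in both directions. Their log2 fold changes were 0.10, -0.13, -0.24, 0.42 and 0.40.

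Negative regulators were lower in p16+ in 3 of 6 cases, where 8.04% of all genes tested were lower. Socs1, which blocks the kinases of the interferon receptors, had 71.1, 72.7 and 73.2 CPM in p16+ libraries, against 149.5, 131 and 135 CPM in p16- libraries (log2 fold change -0.94, SE 0.08, adjusted p = 6.49e-07). The libraries of Socs1 were tight within both groups and far apart between them. Socs3, a brake on cytokine signals that act through Stat3, and Samhd1, which depletes nucleotides, were lower as well (log2 fold changes -0.43 and -0.32, adjusted p = 0.000839 and 0.00599). Of 10 upstream adaptors and sensors, 2 were lower: Myd88, the adaptor of most Toll-like receptors (log2 fold change -0.66, adjusted p = 0.000198, 11.3% of its exonic length overlapped), and Tbk1, the kinase that activates Irf3 (-0.36, adjusted p = 0.0127).

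Of 9 genes of MHC class I presentation, 2 were lower and 1 higher in p16+, where 8.04% of all genes tested were lower and 8.69% higher. Nlrc5, the transactivator of these genes, was lower (log2 fold change -0.77, adjusted p = 0.00159), as was the proteasome activator Psme1 (-0.29, adjusted p = 0.0242). Tapbp, which loads peptides, was higher (0.29, adjusted p = 0.0104), although another gene overlaps 29.0% of its exons. Of 25 further type I response genes, 8 were lower, led by Sp100, a nuclear body protein (-0.68, adjusted p = 1.84e-05), the mitochondrial nucleotide kinase Cmpk2 (-1.12, adjusted p = 5.12e-05) and Nmi (-0.72, adjusted p = 0.000882). The 1 that was higher was Ifitm1, which restricts viral entry (0.54, adjusted p = 0.0313). Of 14 further gamma response genes, 6 were lower, led by the GTPases Gbp9 (-1.27, adjusted p = 1.4e-05), Irgm2 (-0.61, adjusted p = 0.000132) and Gbp6 (-1.22, adjusted p = 0.000225), the last with 29.0% of its length overlapped. Ifi30, a lysosomal thiol reductase of antigen processing, was the 1 that was higher (0.39, adjusted p = 0.00404).

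**Figure D4:**
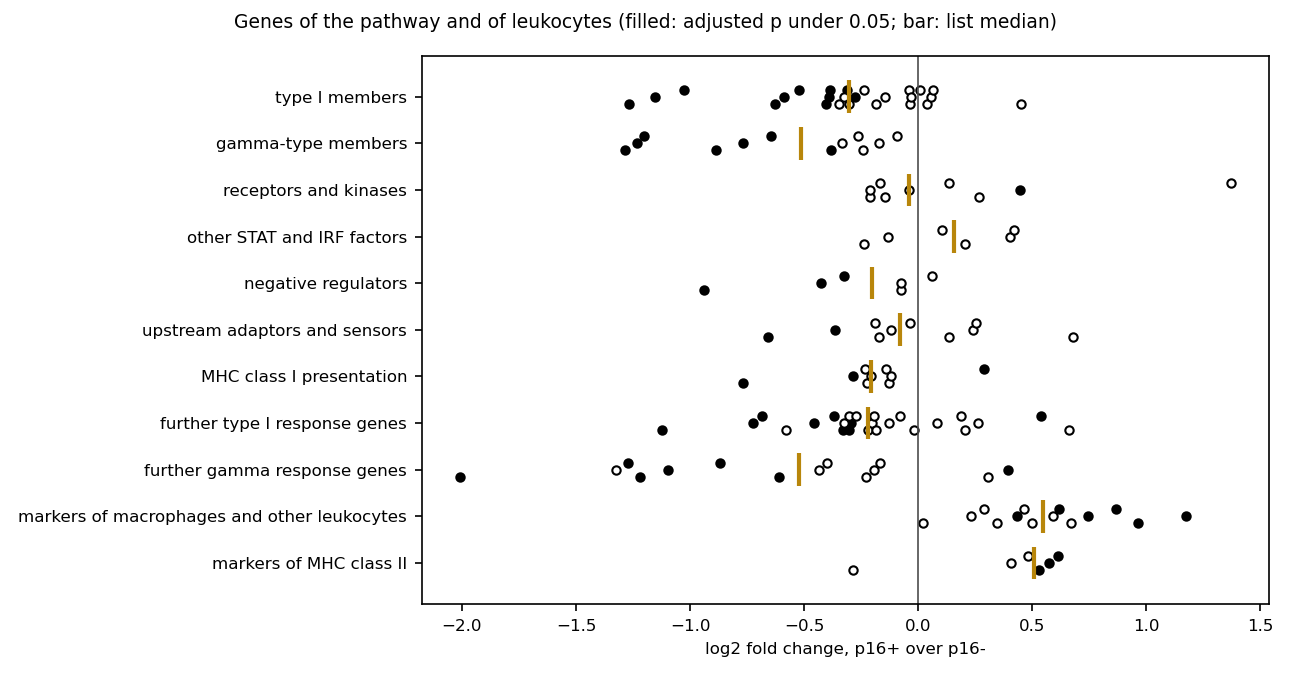
Log2 fold change, p16+ over p16-, of each tested gene in the member classes, the pathway lists and 2 marker lists; filled points passed an adjusted p of 0.05 and gold bars are list medians. The type I and gamma-type members and the further gamma response genes lie mostly left of 0, and the leukocyte and MHC class II markers mostly right of it.

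Markers of other cells that a sort can carry over also differed between the groups. Of 14 tested leukocyte markers 6 were higher in p16+ (Csf1r, Lyz2, Laptm5, Mrc1, C1qa and C1qb), where 8.69% of all genes tested were higher. The count of lower markers was 0, also at an unadjusted p under 0.05 and in DESeq2. All 15 listed leukocyte markers summed to 295 to 345 CPM in p16+ libraries, against 210 to 237 CPM in p16- libraries. Ptprc (CD45), the gene of the leukocyte gate, had 9.77, 8.17 and 5.37 CPM in p16+ libraries, against 4.60, 5.93 and 4.14 CPM in p16- libraries (log2 fold change 0.67, adjusted p = 0.0602). Of 6 MHC class II genes, Cd74, H2-Ab1 and H2-Eb1 were higher in p16+, and the 6 summed to 77.6 to 94.0 CPM in p16+ libraries, against 52.5 to 64.9 CPM in p16- libraries. The genes of both lists that passed were higher in p16+, and how this bears on the interferon response genes was not tested.

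Endothelial markers were split. Tek was lower in p16+ (log2 fold change -1.77, adjusted p = 5.24e-08), while Pecam1 (CD31, the gene of the endothelial gate), Vwf and Emcn were higher, at 8.12 CPM or less in every library. The 7 endothelial markers summed to 68.3 to 94.6 CPM in p16+ libraries, against 173 to 206 CPM in p16- libraries, most of it Tek. Markers of lymphocytes, which include the cells that make interferon gamma, were low in both groups. The 11 lymphocyte markers summed to 1.62 to 2.78 CPM in p16+ libraries, against 1.99 to 2.65 CPM in p16- libraries, and Ncr1 had 0 counts throughout. Of these, 3 were tested and did not pass in edgeR. DESeq2 called 1 of the 3 higher in p16+, where it called 1582 of all 15903 genes tested higher. The following were named after their values were seen, and they did not share a direction. Gzmb, the granule protease of cytotoxic and natural killer cells, was too low for the test, with 1, 0 and 0 counts in p16+ libraries, against 49, 21 and 6 counts in p16- libraries. The B cell gene Cd79a had 13, 25 and 19 counts in p16+ libraries, against 1, 6 and 2 counts in p16- libraries (log2 fold change 2.74, adjusted p = 0.0518). Ms4a1, also of B cells, had 0, 3 and 20 counts in p16+ libraries, against 0 in each p16- library. Markers of plasmacytoid dendritic cells, a main source of type I interferon, summed to 0.0550 to 0.847 CPM in p16+ libraries, against 0.172 to 0.323 CPM in p16- libraries. The part of carried-over cells in the differences of the interferon response genes was not tested.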

How the data were processed

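Bulk RNA-seq was measured in 6 libraries, 3 p16+ and 3 p16-. The deposited files give raw fragment counts for each gene: per the file headers, featureCounts 1.6.0 was run over the exons of GENCODE vM21. The command set nothing for strand, for overlapping genes or for multiply mapped reads, so a fragment shared by genes was left out by default. Per the submitters' processing notes, the aligner was STAR 2.7.3a and the build GRCm38.p6. The kit does not mark strand, per the labels' protocols, and overlap with other genes is stated where it passes 10% of a gene's exons.

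Counts were tested in R 4.3.3 with edgeR 4.0.16: filterByExpr defaults, TMM factors, and the robust quasi-likelihood F test with the group as the single term. Benjamini-Hochberg adjustment ran over all 15903 genes tested, and 0.05 was the threshold. Standard errors and 95% intervals come from that test. CPM used TMM-scaled library sizes, and log2 CPM a prior count of 2. The procedure was tested on simulated data.

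Members and lists were chosen with earlier results of these data known. Values in every library are given for members past the threshold, for the 4 of each class highest per length and for those whose call changes when 1 library is left out. Of the pathway lists, the genes with the 3 smallest p in each direction are named, besides the receptor chains, and of the marker lists those past the threshold and the genes of the gate. The values of 1 pathway gene covered by this rule are not reported here. Alternatives were RLE factors, upper-quartile factors, library sizes alone, no filter, a stricter filter (CPM of at least 1 in 3 libraries), DESeq2 1.42.0, a replicate block, and leaving out each library in turn.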

Additional observations from a re-analysis of the deposited data

How the results depend on the processing

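The number of members lower in p16+ was 18 with RLE factors, upper-quartile factors, the stricter filter and DESeq2, in each case the same 18, 19 without a filter, and 22 with library sizes alone, which added Gbp3, Ifi35, Oasl2 and Xaf1. Library sizes alone moved the median of all genes to -0.08 and the share of calls that were higher in p16+ to 36.0%, against 52.0% with TMM factors, and 32 pathway genes were then lower. Deviations of libraries with equal replicate numbers from their group means correlated at 0.0284, 0.0822 and -0.0046, and not every library correlated best with its own number. With so few libraries a group, these values cannot decide whether equal numbers share animals or pools. Over all genes tested, the replicate block called 1605 higher and 1509 lower in p16+, against 1382 and 1278 without it. With the replicate block, 20 members were lower and 8 pathway genes higher, against 7 without a filter. With 1 library left out, 13 to 19 members were lower (18 with all), 0 to 1 higher, 7 to 13 type I members lower (11 with all), and 2 to 7 pathway genes higher (4 with all). The lowest type I count came without p16+ replicate 1 and without p16+ replicate 3. Of 481 recomputed member values, 434 kept their direction and their side of the threshold, and 12 members passed in every fit.

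The sign turned in 16 recomputations, all of members that did not pass. With library sizes alone the log2 fold change was -0.0679 for Mx1, -0.0382 for Isg15, -0.0212 for Ddx58 and -0.0132 for Bst2, and with the replicate block it was -0.0183 for Mx1. With 1 library left out, it ran from -0.2204 to 0.1432 for Dhx58, -0.1753 to 0.0757 for Zbp1, -0.0782 to 0.0222 for Oas1a, -0.1024 to 0.191 for Mx1, -0.0638 to 0.1923 for Isg15, and -0.0054 to 0.1679 for Bst2. The cause of these changes was not tested. With 3 libraries a group, a log2 fold change near 0.3 lay at the limit of what passed, as for Parp14 (-0.28, passed) and Xaf1 (-0.33, not passed).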
